A study of Mus musculus with 10 samples.

Results

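Surfactant is the film of phospholipid and protein that lowers surface tension in the lung's air sacs, and type 2 alveolar epithelial cells (AEC2s) make it. Expression of 9 genes of this product was followed across 10 arrays of sorted mouse lung epithelium. They were chosen by symbol, and each had exactly 1 probe set carrying a single gene symbol, so the 9 are all accounted for among 22180 genes measured. They comprise the surfactant protein genes Sftpc, Sftpb, Sftpa1 and Sftpd, the lamellar body genes Abca3 and Lamp3, the protease genes Napsa and Ctsh, and the phosphate transporter gene Slc34a2. All values are the deposited log2 probe set values.

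The cells came from lungs at postnatal day 4, in 2 groups of 5 arrays. Sample titles call the cells of both groups AEC2s. SP-C+ cells were sorted for YFP from SftpcCreERT2-R26REYFP mice that had undergone 24 h of lineage tracing; no such time is given for the other group. CreERT2 is a Cre recombinase that acts only in the presence of tamoxifen or a related ligand, and here the Sftpc gene drove it. Axin2+ cells were sorted as TdTomato+, EpCAM+, CD31- and CD45- from Axin2CreERT2-TdTomato mice, in which Axin2, a target of Wnt signalling, drove the same recombinase. EpCAM marks epithelium, CD31 endothelium and CD45 leukocytes. The mice of both lines were of mixed background (C57BL/6, 129S6 and CD-1), and no further treatment was listed. Mouse line, reporter and gate differed together between the groups, so they cannot be told apart from the cell label. The gate listed for Axin2+ cells holds no AEC2 protein, whereas SP-C+ cells were selected through the Sftpc gene itself. Sftpc is therefore part of how the SP-C+ group was made, and its level there does not check that label. Whether the Cre allele replaces part of Sftpc is not given in the sources used here. A description shared by all samples speaks of P3 and adult cells, while titles and age labels give day 4 throughout. No label says that the 5 samples of a group are separate animals, and p-values measure only the spread between these samples. The mean of 3 Y-linked genes (Eif2s3y, Kdm5d and Uty) ran from 4.06 to 9.42 over SP-C+ and from 3.87 to 9.24 over Axin2+ arrays, so the arrays of a group were not all made from 1 RNA. It was near 4 in 1 SP-C+ and 3 Axin2+ arrays, at 7.11 in SP-C+ replicate 1, and at 8.84 or more in the others.

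AEC2s secrete surfactant from lamellar bodies, storage organelles related to lysosomes. SP-B and SP-C are small hydrophobic proteins, cut out of longer precursors on the way to these organelles, and they help spread the lipid film. SP-A and SP-D are larger, water-soluble collectins, which bind sugars on microbes, and SP-D also takes part in regulating how much surfactant is held in the lung. Abca3 pumps phospholipid into lamellar bodies, and loss of SP-B or Abca3 causes respiratory failure at birth.

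The mean differences of the surfactant genes between Axin2+ and SP-C+ arrays ran from -0.32 to 0.10. Sftpd alone was called, 1.25-fold lower in Axin2+ (-0.32 ± 0.08 SE on the log2 scale, 5 arrays against 5, adjusted p of 0.0167 by limma). Of the other 8 genes, 7 had lower means in Axin2+ arrays and 1, Sftpc, had a higher mean, and none of these 8 passed the threshold (adjusted p under 0.05 over all genes). So 0 of 9 were called higher and 1 lower, where 8.61% of all genes were called higher, 8.95% lower and 17.6% in either direction. At an unadjusted p under 0.05 in limma, 3 were lower (Sftpd, Abca3 and Napsa) and 0 higher, where 16.9% of all genes were lower, 12.4% higher and 29.3% either. The median difference was -0.15 over the 9 genes and -0.04 over all genes tested. Centring each array on its median moved the latter to -0.14. It turned the split of all calls from 49% higher to 26.1% higher and put 5 of the 9 genes past the threshold, all lower (Sftpd, Abca3, Lamp3, Napsa and Slc34a2). In the fit to the deposited values, the 95% intervals of the 9 genes reached no lower than -0.53 (1.45-fold down) and no higher than 0.23 (1.18-fold up). These are intervals of single genes and do not cover a change of scaling such as median centring. They concern probe set values, and whether the scale is compressed near its top was not tested. In bulk samples, fewer cells of a type and less RNA per cell cannot be told apart.

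**Figure D1:**
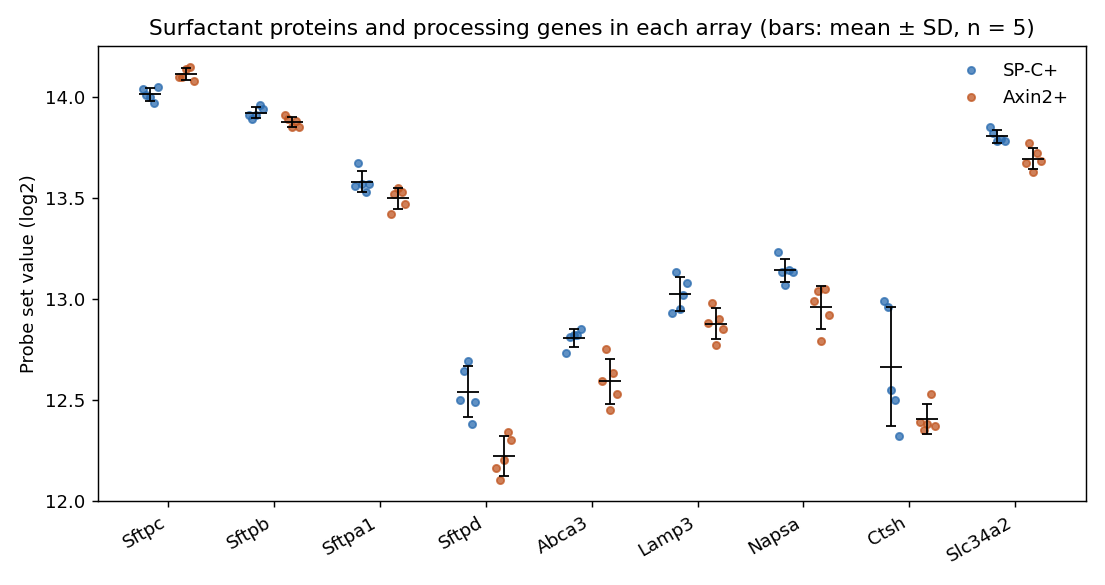
Log2 probe set value (vertical axis) of each of the 9 genes (horizontal axis) in every array, with SP-C+ arrays in blue, Axin2+ arrays in orange, and black bars for the mean and SD of 5 arrays. Sftpd lies wholly lower in Axin2+ arrays, Sftpc wholly higher, and Ctsh spreads from 12.32 to 12.99 in SP-C+ arrays.

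**Figure D2:**
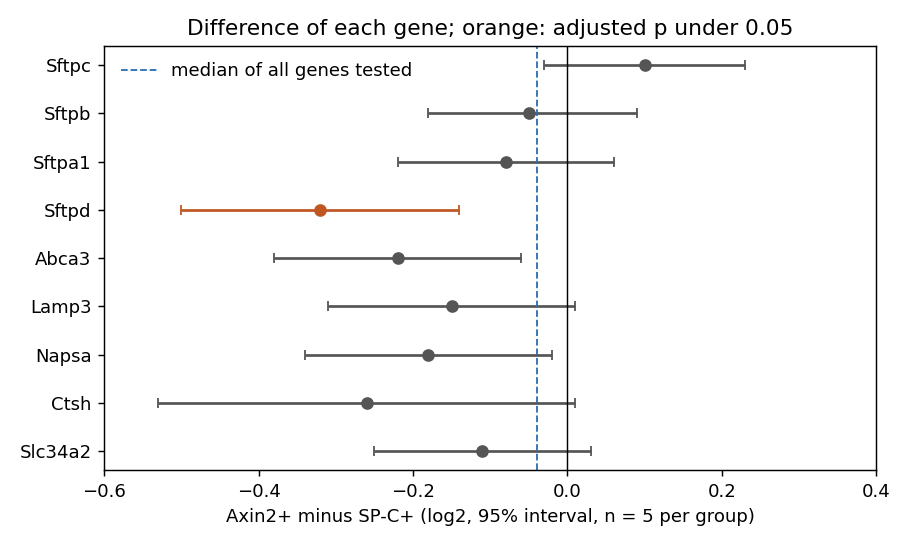
Log2 difference of each gene (horizontal axis, Axin2+ minus SP-C+), with its 95% interval from the moderated fit. Sftpd, in orange, is the 1 gene past the threshold, the intervals of Abca3 and Napsa also end below 0, and the dashed line is the median of all genes tested, -0.04.

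The 2 collectin genes differed in the size of their shift. Sftpd, which encodes surfactant protein D, measured 12.50, 12.64, 12.69, 12.38 and 12.49 in SP-C+ replicates 1 to 5, and 12.16, 12.10, 12.20, 12.34 and 12.30 in Axin2+ replicates 1 to 5. The groups did not overlap, although the highest Axin2+ array (12.34) lay just under the lowest SP-C+ array (12.38). The exact two-sided permutation p was 0.00794, the smallest that 5 against 5 allows. In limma, the gene passed in all 10 fits that left out 1 array (adjusted p = 0.0112 to 0.0458). When SP-C+ replicates 1, 2 and 3 were omitted, leaving replicates 4 and 5, the difference was -0.22 and lost its call (adjusted p = 0.192 in limma). So few arrays also weaken the test, here and wherever these 3 arrays are left out below. With Y-linked expression as a covariate the call was lost as well (-0.29, adjusted p = 0.0509 in limma). A difference at least as large as the -0.32 over all arrays was seen in 19.1% of all genes.

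Sftpa1, which encodes surfactant protein A, measured 13.56, 13.67, 13.57, 13.53 and 13.57 in SP-C+ arrays and 13.42, 13.52, 13.55, 13.53 and 13.47 in Axin2+ arrays. In 4 of 5 Axin2+ arrays it lay below every SP-C+ array. The difference was -0.08 ± 0.07 SE (adjusted p = 0.456 in limma), with an interval from -0.22 to 0.06, and the exact permutation p was 0.0159. The gap between the 2 collectins was read within each array, where scaling drops out: Sftpa1 minus Sftpd was 1.04 ± 0.10 (SD, n = 5) in SP-C+ and 1.28 ± 0.11 in Axin2+ arrays, without overlap. The mannose-binding lectin gene Mbl1, another collectin, lies between Sftpa1 and Sftpd on chromosome 14 in the RefSeq gene order of assembly GRCm38.p6. It fell from 9.86 ± 0.21 (SD) to 9.28 ± 0.12, and limma put the change at -0.58 ± 0.11 SE with an adjusted p of 0.00193.

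The genes of the hydrophobic proteins had the steadiest levels. Sftpb, which encodes the precursor of surfactant protein B, measured 13.91, 13.89, 13.91, 13.96 and 13.94 in SP-C+ arrays and 13.91, 13.89, 13.85, 13.88 and 13.85 in Axin2+ arrays. The groups overlapped, the difference was -0.05 ± 0.06 SE (adjusted p = 0.69 in limma), and its interval ran from -0.18 to 0.09. The exact permutation p was 0.0317. Its SD within groups was 0.03 and 0.02, and 0% of all genes had a smaller pooled SD.

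Sftpc, which encodes the precursor of surfactant protein C and marks AEC2s, measured 14.04, 14.01, 14.00, 13.97 and 14.05 in SP-C+ arrays and 14.10, 14.10, 14.14, 14.15 and 14.08 in Axin2+ arrays. Every Axin2+ array exceeded every SP-C+ array. The difference was 0.10 ± 0.06 SE and did not pass (adjusted p = 0.324 in limma), while the exact permutation p was 0.00794. It was the 1 gene of the 9 with a higher mean in Axin2+ arrays, and with median centring of the arrays its difference was 0.01. The highest value of any probe set on any array was 14.16, so Sftpc lay close to the top of the scale in both groups. No gene outside the 9 had a mean as high as that of Sftpc (14.06), and outside the 9 only 5 had means at or above that of Sftpa1 (13.54): Rn7sk, Lyz1, ND4, Cxcl15 and COX1. Their differences ran from -0.03 to 0.08 and 0 passed in limma (lowest adjusted p = 0.509), with 0 also at an unadjusted p under 0.05. Whether the scale is compressed there was not tested.

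Differences read within an array compare Sftpc with its partners. Sftpc minus Sftpb was 0.09 ± 0.05 (SD, n = 5) in SP-C+ arrays and 0.24 ± 0.04 in Axin2+ arrays. Sftpc minus Abca3 was 1.21 ± 0.06 and 1.53 ± 0.12, and Sftpc minus Slc34a2 was 0.21 ± 0.04 and 0.42 ± 0.07. In 7 of the 8 pairs with Sftpc the groups did not overlap, the exception being Ctsh. Of all 36 pairs among the 9 genes, 8 did not overlap, the remaining 1 being Sftpa1 with Sftpd. These pairs share arrays and genes, were read after the values were seen and were given no test. They describe unequal differences in probe set value and not which gene of a pair moved. The part of probe response near the top of the scale was not tested.

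**Figure D3:**
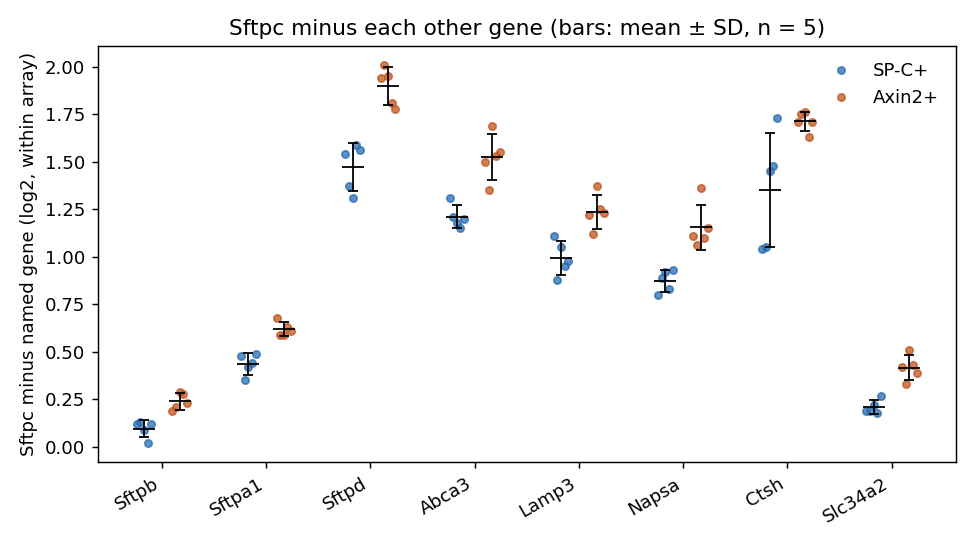
Sftpc minus each of the other 8 genes within the same array, on the log2 scale (vertical axis), by gene (horizontal axis), with SP-C+ arrays in blue, Axin2+ arrays in orange, and the mean and SD of 5 arrays in black. The Axin2+ points lie above all SP-C+ points for each gene except Ctsh, and the step is 0.14 for Sftpb and 0.42 for Sftpd.

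The lamellar body membrane genes were slightly lower in Axin2+ arrays without passing the threshold. Abca3 measured 12.73, 12.81, 12.82, 12.82 and 12.85 in SP-C+ arrays and 12.59, 12.75, 12.45, 12.63 and 12.53 in Axin2+ arrays. Axin2+ replicate 2 overlapped the lowest SP-C+ array, and the other 4 lay below it. The difference was -0.22 ± 0.07 SE (adjusted p = 0.0635 in limma, interval -0.38 to -0.06, exact permutation p = 0.0159). Without Axin2+ replicate 2 it was -0.26 and passed (adjusted p = 0.0392 in limma). Lamp3, a lysosome-associated membrane protein gene also called DC-LAMP, measured 12.93, 13.13, 12.95, 13.02 and 13.08 in SP-C+ arrays and 12.88, 12.98, 12.77, 12.90 and 12.85 in Axin2+ arrays. Its groups overlapped at 1 Axin2+ array, and the difference was -0.15 ± 0.07 SE (adjusted p = 0.2 in limma, interval -0.31 to 0.01, exact permutation p = 0.0317).

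The 2 proteases, which cut surfactant precursors, differed in their spread. Napsa encodes napsin A, an aspartic protease that processes pro-SP-B. It measured 13.23, 13.13, 13.07, 13.14 and 13.13 in SP-C+ arrays and 12.99, 13.04, 12.79, 13.05 and 12.92 in Axin2+ arrays. No Axin2+ array reached the SP-C+ range (exact permutation p = 0.00794), but the difference of -0.18 ± 0.07 SE did not pass in limma (adjusted p = 0.117, interval -0.34 to -0.02). Ctsh encodes cathepsin H, a cysteine protease that also processes pro-SP-B. It measured 12.99, 12.96, 12.55, 12.50 and 12.32 in SP-C+ arrays and 12.39, 12.35, 12.38, 12.53 and 12.37 in Axin2+ arrays. SP-C+ replicates 1 and 2 stood above the other 8 arrays, while the other 3 SP-C+ arrays (12.32 to 12.55) reached slightly past both ends of the Axin2+ range (12.35 to 12.53).

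The difference of Ctsh changed with the SP-C+ arrays used. Its SD was 0.30 in SP-C+ and 0.07 in Axin2+ arrays, and 73.8% of all genes had a smaller pooled SD, against 18.7% or less for the other 8 genes. The difference was -0.26 ± 0.12 SE (adjusted p = 0.184 in limma, interval -0.53 to 0.01, exact permutation p = 0.119). Leaving out SP-C+ replicates 4 and 5 gave -0.43, which passed (adjusted p = 0.0188 in limma), and leaving out the other 3 gave -0.01 (adjusted p = 0.976). Mean levels of the endothelial and mesenchymal marker lists were highest in SP-C+ replicate 1 (7.68 and 6.67, against 6.56 to 7.08 and 5.97 to 6.21 in the other SP-C+ arrays), while replicate 2 was at 6.67 and 5.99. Their part in the spread of Ctsh was not tested.

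Slc34a2, the sodium-phosphate cotransporter gene of the AEC2 surface, measured 13.85, 13.82, 13.78, 13.79 and 13.78 in SP-C+ arrays and 13.67, 13.77, 13.63, 13.72 and 13.68 in Axin2+ arrays. All Axin2+ arrays lay below all SP-C+ arrays (exact permutation p = 0.00794), by a difference of -0.11 ± 0.06 SE that did not pass in limma (adjusted p = 0.287, interval -0.25 to 0.03). Sftpc, Sftpd, Napsa and Slc34a2 were thus the 4 of 9 genes whose groups did not overlap, where 15% of all genes and 26.3% of the 114 genes with means at least as high as that of Sftpd (12.38) did not overlap. Some Axin2+ arrays were high or low for most of the genes. All 9 lay above their group mean in Axin2+ replicate 4, 8 of 9 below it in replicate 5, and replicate 3 held the lowest Axin2+ value of 5 genes.

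Calls among genes with similarly high means were counted by level. Of the 114 genes with a mean of at least that of Sftpd (12.38), the 9 included, 19.3% were called in limma, 6.14% higher and 13.2% lower. Outside the 9, 95 genes had both group means at or above this level, and 5 of them were called higher and 10 lower. Ager, a marker of type 1 alveolar cells (AEC1s), is 1 of the 95 and rose from 12.56 ± 0.12 (SD) to 13.27 ± 0.07, by 0.71 ± 0.08 SE (adjusted p = 2.74e-05 in limma). Outside the 9, 21 of 105 genes with a mean of at least that of Sftpd were called. At the level of Napsa (13.05) 4 of 31 were called, and at that of Slc34a2 (13.75) 0 of 3, none of which passed unadjusted either. These sets are nested and the last is small, and whether calls depend on the mean was not tested.

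The RefSeq promoter table of GRCm38.p6 held 5 of the 9 genes: Sftpb, Sftpa1, Abca3, Lamp3 and Slc34a2. Below are the 250 bases before the transcription start of Sftpb (chr6:72304360-72304609, plus strand), Sftpa1 (chr14:41131538-41131787, plus strand), Abca3 (chr17:24351773-24352022, plus strand) and Lamp3 (chr16:19706366-19706615, minus strand), written 5′ to 3′ along the gene. They are shown so that the layout of the core letters of 2 lung transcription factors can be read beside differences of -0.05, -0.08, -0.22 and -0.15 for these genes in turn. Capitals mark CAAG, the core of sites for NKX2-1, and TGTTTNC, a core for FOXA factors, on either strand.
Sftpb: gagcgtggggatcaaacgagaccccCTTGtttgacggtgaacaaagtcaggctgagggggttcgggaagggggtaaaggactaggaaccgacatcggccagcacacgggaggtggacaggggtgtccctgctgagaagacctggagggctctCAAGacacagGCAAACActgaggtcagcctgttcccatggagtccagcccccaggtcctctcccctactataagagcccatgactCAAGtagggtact
Sftpa1: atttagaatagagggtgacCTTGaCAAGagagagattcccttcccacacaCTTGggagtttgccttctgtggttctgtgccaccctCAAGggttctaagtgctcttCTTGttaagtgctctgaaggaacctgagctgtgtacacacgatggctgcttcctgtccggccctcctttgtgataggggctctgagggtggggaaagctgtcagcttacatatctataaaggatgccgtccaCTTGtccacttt
Abca3: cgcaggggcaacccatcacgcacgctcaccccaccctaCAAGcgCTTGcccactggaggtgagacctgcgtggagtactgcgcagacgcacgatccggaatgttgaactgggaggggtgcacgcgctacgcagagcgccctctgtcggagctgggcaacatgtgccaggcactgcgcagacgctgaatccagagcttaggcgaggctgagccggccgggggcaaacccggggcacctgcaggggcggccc
Lamp3: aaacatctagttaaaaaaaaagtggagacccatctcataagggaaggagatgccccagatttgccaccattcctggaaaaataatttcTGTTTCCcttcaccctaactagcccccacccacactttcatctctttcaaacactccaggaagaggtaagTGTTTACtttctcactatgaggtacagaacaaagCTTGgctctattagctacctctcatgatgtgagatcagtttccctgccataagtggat

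Both factors are known activators of surfactant protein genes. The Sftpb window held 3 matches to CAAG and 1 to TGTTTNC, with a CAAG at -98 to -95 and the FOXA letters at -88 to -82, counted back from the start. The Sftpa1 window held 6 matches to CAAG and 0 to TGTTTNC. Abca3 had 2 and 0, Lamp3 1 and 2, and Slc34a2 0 and 0. CAAG is short, and 86.6% of the 32851 windows of 250 bases in the table held it, against 17.8% for TGTTTNC. CACTNNAG, a longer NKX2-1 form that leaves letters of the core open, occurred once each in Abca3 and Lamp3 and in 12.9% of all windows. The letters found were CACTGGAG in Abca3 and CACTCCAG in Lamp3, neither of which holds CAAG. TTGCNNNAA, a C/EBP form, occurred once, in Slc34a2, and in 8.29% of all windows, and GGAAGT, an ETS core, in 0 of the 5 genes and 19.7% of all windows. All were searched on both strands, and no match in these genes overlapped another. These matches describe letters and are not measured sites.

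Transcription factors that act on surfactant genes included 4 with clear falls. Of 18 measured, 4 were lower in Axin2+ arrays, 0 higher and 14 not called, with a median difference of -0.14. Over all genes, 8.95% were called lower and 8.61% higher. Cebpd fell by 1.04 (SE 0.10, adjusted p = 5.53e-06 in limma), Cebpa, a C/EBP factor of AEC2 maturation, by 0.62 (SE 0.07, adjusted p = 3.81e-05), and Srebf2, a regulator of sterol synthesis, by 0.59 (SE 0.08, adjusted p = 2.47e-04). At an unadjusted p under 0.05 in limma, 7 were lower and 1 higher, where 16.9% of all genes were lower and 12.4% higher. Nkx2-1, the lung lineage factor, differed by -0.02 ± 0.07 SE (adjusted p = 0.897), Foxa2 by 0.00 ± 0.08 (adjusted p = 0.992) and Gata6 by 0.17 ± 0.07 (adjusted p = 0.133). Etv5, at -0.34 ± 0.12, did not pass either (adjusted p = 0.0615).

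Several genes that supply surfactant lipid fell. Of 22 genes of phospholipid supply and remodelling, 9 fell, 2 rose and 11 were not called, at a median of -0.24. The shares of all genes were 8.95% lower and 8.61% higher. In limma, 13 of the 22 were lower and 2 higher at an unadjusted p under 0.05, where 16.9% of all genes were lower and 12.4% higher. Lpin1, a phosphatidate phosphatase, fell by 0.77 (SE 0.13), Lpin2 by 0.66 (SE 0.17) and Acaca, which makes malonyl-CoA for fatty acids, by 0.64 (SE 0.10; adjusted p = 0.00102, 0.0179 and 4.97e-04 in limma). Pltp, a phospholipid transfer protein gene, rose by 2.69 ± 0.16 and Pcyt1b by 0.80 ± 0.13 (adjusted p = 1.12e-07 and 7.47e-04). Scd1, another of the 9 falls (-0.26 ± 0.08, adjusted p = 0.0446 in limma), lost its call in 8 of the 10 fits that left out 1 array. With SP-C+ replicates 1, 2 and 3 left out, 3 of these 9 falls kept their call (Lpin1, Acaca and Fabp5). Lpin2 was then at -0.27 (adjusted p = 0.138 in limma). A gene not called with all arrays was also lower there, which made 4 called lower in this list. Whether this list differs from the surfactant genes was not tested.

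Organelle and folding genes were set beside all genes, of which 17.6% passed the test, 8.61% higher and 8.95% lower. Among 22 genes of lamellar body and lysosome-related organelle biogenesis, 4 fell and 1 rose (median -0.11). In limma, 9 of these 22 were lower and 1 higher at an unadjusted p under 0.05. The shares of all genes at that threshold were 16.9% lower and 12.4% higher. Rab27a, a GTPase of organelle docking, fell by 0.57 (SE 0.12, adjusted p = 0.00399 in limma), Vps33b by 0.41 (SE 0.11, adjusted p = 0.0215) and Dtnbp1 by 0.38 (SE 0.07, adjusted p = 0.00202). Bloc1s1 was higher by 0.30 ± 0.08 (adjusted p = 0.0249), but dropped out of 4 of the 10 fits that each omit 1 array (Vps33b out of 2). Of 24 genes of endoplasmic reticulum folding and quality control, on which pro-SP-C depends, 3 fell and 0 rose (median -0.03). At an unadjusted p under 0.05 in limma 6 were lower and 0 higher, where 16.9% of all genes were lower and 12.4% higher. Dnajb9 was at -0.64 ± 0.19, Ddit3 at -0.59 ± 0.17 and Herpud1 at -0.54 ± 0.09 (adjusted p = 0.0344, 0.0262 and 0.0012), and only Herpud1 kept its call in all fits without 1 array. Leaving out SP-C+ replicates 1, 2 and 3 put Dnajb9 at -0.24 and Ddit3 at -0.18 (adjusted p = 0.519 and 0.447).

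Genes of surfactant recycling and clearance moved both ways, with 4 of 11 lower and 3 higher (median -0.06). Among all genes 8.95% were called lower and 8.61% higher. Csf2rb, the shared beta chain of the GM-CSF receptor, fell by 1.23 (SE 0.12, adjusted p = 1.17e-05 in limma), Mertk, a receptor for dying cells, by 0.53 (SE 0.10, adjusted p = 0.00281), and Csf2, GM-CSF itself, by 0.52 (SE 0.13, adjusted p = 0.0172). Leaving out SP-C+ replicates 1, 2 and 3 put Csf2 at -0.34 (adjusted p = 0.273). The higher genes were Aqp5 (1.04 ± 0.24), an AEC1 water channel that is also in the AEC1 list, Anxa2 (0.87 ± 0.09) and Lpcat4 (0.57 ± 0.09).

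Over 3 lists of family relatives of the 9 genes, 10 of 53 were called (18.9%), near the 17.6% of all genes. Among 18 other cathepsins, aspartic proteases and their inhibitors, 1 rose and 1 fell (median -0.01): Ctso was higher by 0.39 ± 0.10 SE and Lgmn, the asparagine endopeptidase, lower (-0.60 ± 0.08, adjusted p = 0.0179 and 1.41e-04 in limma). The call for Ctso ended without Axin2+ replicate 3 (adjusted p = 0.0524). Among 16 genes with BRICHOS, saposin or collectin relatives of SP-C, SP-B and SP-A, 2 rose and 2 fell (median 0.01). Psap, the saposin precursor, was higher by 0.42 ± 0.10 and Itm2c, a BRICHOS gene, by 0.39 ± 0.08, while Mbl1 (-0.58 ± 0.11) and Bricd5 (-0.36 ± 0.09) were lower. Of 19 ABCA transporters, LAMP genes and phosphate transporters, 3 rose and 1 fell (median -0.08). Abca5 rose by 1.39 ± 0.11, Abca9 by 0.57 ± 0.09 and Abca2 by 0.36 ± 0.08, and Lamp2 fell by 0.30 (SE 0.07), each with an adjusted p of 0.0106 or lower in limma. With SP-C+ replicates 1, 2 and 3 left out, the calls of Ctso, Psap, Itm2c, Bricd5, Abca2 and Lamp2 ended (adjusted p = 0.0509 to 0.239 in limma).

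**Figure D4:**
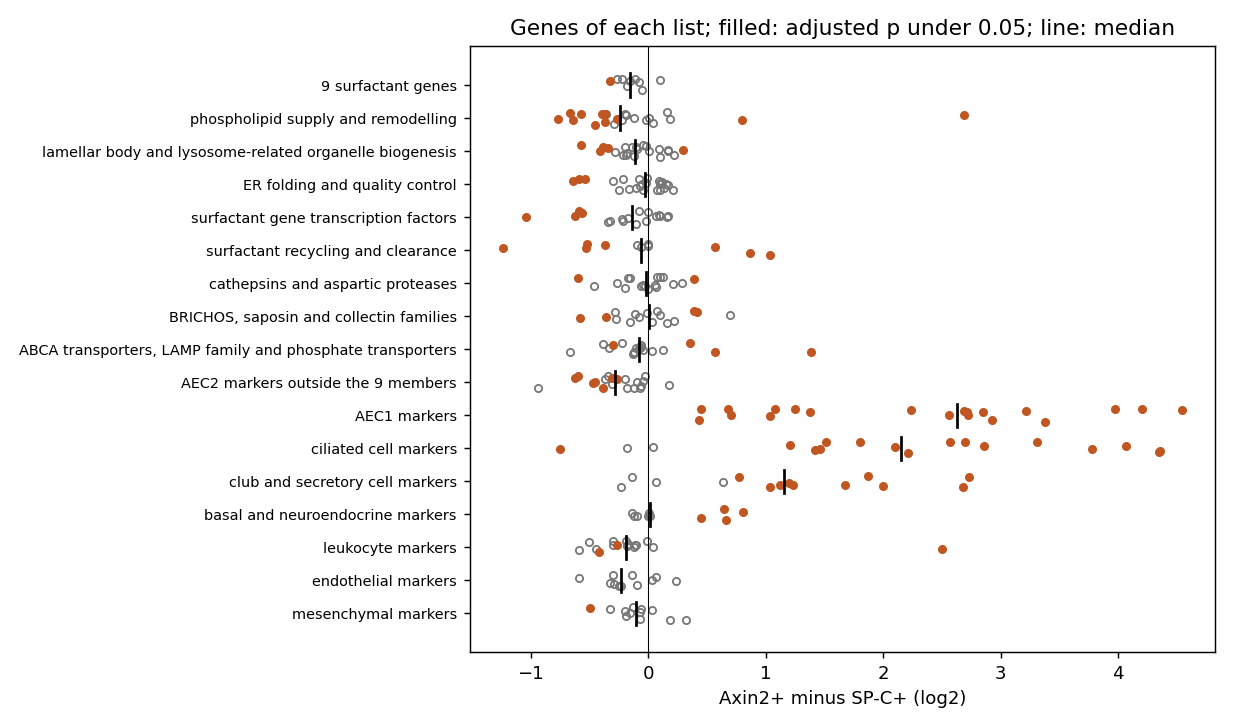
Log2 difference of each measured gene (horizontal axis, Axin2+ minus SP-C+) in the 9 surfactant genes and in 16 lists (rows); filled points passed an adjusted p of 0.05 and black lines are medians. The 9 surfactant genes lie between -0.32 and 0.10, while AEC1 and ciliated cell markers have medians of 2.62 and 2.16.

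Markers of other epithelial cell types had large shifts. All 20 AEC1 markers and 15 of 18 ciliated cell markers were higher in Axin2+ arrays (medians 2.62 and 2.16), and 1 ciliated marker, Ccno, was lower. Of 14 club and secretory cell markers 10 were higher and none lower (median 1.16). Scgb3a1 and Cyp4b1 each lost their call in 5 of the 10 fits that left out 1 array. Without SP-C+ replicates 1, 2 and 3, the calls of Scgb3a1, Cckar, Bpifb1 and Chad ended (adjusted p = 0.0515 to 0.214 in limma). Club cells also express Sftpb, Sftpa1 and Sftpd. Scgb1a1, which defines club cells, went from 10.27 ± 0.78 (SD) to 13.00 ± 0.16. The mean of the club list ran from 6.80 to 7.07 in SP-C+ and from 7.74 to 8.28 in Axin2+ arrays, that of the AEC1 list from 9.18 to 9.66 and from 11.41 to 11.78. Of 20 AEC2 markers outside the 9 genes, 7 were lower and 0 higher (median -0.28), and 19 of 20 differences were negative. At an unadjusted p under 0.05 in limma 12 were lower and 0 higher. Scd1 lost its call in 8 of the 10 fits that left out 1 array. Without SP-C+ replicates 1, 2 and 3, Scd1, Cd36 and Ppp1r14c were not called (adjusted p = 0.0557 to 0.183 in limma). Without SP-C+ replicates 4 and 5, Scd1, Acoxl and Ppp1r14c were not called (adjusted p = 0.0538 to 0.106 in limma). Of all genes, 8.95% were called lower and 8.61% higher, or 16.9% and 12.4% at an unadjusted p under 0.05 in limma. Lyz2, an AEC2 lysozyme gene, measured 13.30 and 13.24. Ptprc, the CD45 gene, Pecam1, the CD31 gene, and Col1a1 of fibroblasts were at 4.24, 7.12 and 7.12 in SP-C+ and 3.94, 6.82 and 6.91 in Axin2+ arrays, and did not pass (adjusted p = 0.221, 0.485 and 0.341 in limma). Arrays give no level of 0. Among 10 basal and neuroendocrine markers 4 were higher, among 16 leukocyte markers 1 was higher and 2 lower, among 12 mesenchymal markers 1 was lower, and among 11 endothelial markers 0 were called in either direction (1 higher and 2 lower at an unadjusted p under 0.05). The part of these shifts in the surfactant values was not tested.

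The AEC2 label, which the titles give to both groups, was held against defining markers. Sftpc, through which SP-C+ cells were selected, does not check the label of that group. Outside the 9 genes, Lyz2 was above 13.0 in all 10 arrays and differed by -0.06. It is 1 of 20 AEC2 markers outside the 9, of which 19 had negative differences. The 7 called lower in Axin2+ arrays were Cd36, Ppp1r14c, Scd1, Fabp5, Acoxl, S100g and Cebpa. Ager, which defines AEC1s, was at 12.44 or above in all arrays, including those labelled SP-C+. Scgb1a1 ran from 9.30 to 11.28 in SP-C+ and from 12.79 to 13.17 in Axin2+ arrays. Foxj1, a ciliated cell marker, ran from 6.26 to 7.10 and from 8.48 to 9.10. Probe sets differ in affinity, so such levels do not measure how many cells of a type were present.

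Finally, genes with the most similar profiles were sought for the 3 surfactant genes that varied most over the 10 arrays, by the root mean square difference between gene-centred log2 profiles. Nearest to Ctsh (SD 0.25 over all arrays) were Riok3 (0.0714), Phf10 (0.0731) and Ddx21 (0.077). Nearest to Sftpd (SD 0.20) were Shc1 (0.0532), Tax1bp1 (0.0538) and Lrrc8a (0.0601), and nearest to Abca3 (SD 0.14) were Ncoa1 (0.0397), Hmgb3 (0.0503) and Ralgapb (0.0505). As above, 8.61% of all genes were called higher and 8.95% lower. Of the 13 measured protein-coding genes next to the 9 along the chromosomes, 1 was higher and 3 lower in Axin2+ arrays. Besides Mbl1, these were Atoh8 next to Sftpb, which rose by 0.79 ± 0.12 SE (adjusted p = 3.82e-04 in limma), Bmp1 next to Sftpc, which fell by 0.49 (SE 0.10, adjusted p = 0.00519), and Sel1l3 next to Slc34a2, which fell by 0.35 (SE 0.10, adjusted p = 0.0322).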

How the data were processed

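RNA of 10 samples was measured on Affymetrix arrays from 100 ng of total RNA each, per the labels' protocols. The authors deposited log2 values for 41345 probe sets. Tools named in the submitters' processing notes are oligo, RMA and limma, with no version or role. The values' range (1.69 to 14.16, array medians 5.89 to 5.97) was the ground for reading them as log2. Background signal adds to every probe, so changes of dim genes are understated, and the number of arrays limits the precision. Of the probe sets, 23521 had 1 gene symbol in the platform annotation, 1814 several and 16010 none. Per gene the probe set with the highest mean was kept, which left 22180 genes.

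Groups came from the titles. The comparison was fitted by lmFit and eBayes of limma 3.58.1 (R 4.3.3), two-sided and without covariates, with Benjamini-Hochberg adjustment over all 22180 genes, and an exact permutation test of group means was added for each of the 9 genes. The replicate numbers are shared by both groups, but the labels do not tie them to a litter or batch, and scan dates were not used here. Of 293 list entries 280 matched a measured gene. The script was also tested on simulated data.

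The genes, lists, tests and alternatives were chosen with earlier results of these data known. Genes named are the 9, up to 3 called rises and 3 called falls of each pathway list, defining markers, and the nearest profiles. Also named are the AEC2 markers called lower and some list genes whose calls depended on the arrays used. The largest changes of the marker lists are given by counts. Alternatives were quantile normalization, median centring, the replicate number as a block, array weights, a trend of variance with intensity together with robust variances, filters at the 25th and 50th percentile of mean level, averaging or keeping all probe sets, a covariate from Y-linked genes, omission of arrays and stricter thresholds. Neighbouring genes and within-array pairs were added after values were seen. Promoter sequences are from RefSeq, GRCm38.p6.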

Additional observations from a re-analysis of the deposited data

Results flagged for a closer look

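Ctsh was the 1 result set apart. In Axin2+ replicate 4 it measured 12.53, and the next highest Axin2+ array was at 12.39, so that this gap took up 0.798 of the range of the 5 arrays, above Dixon's critical value of 0.71. Both ends of 18 sets of 5 arrays were examined, and 1 was flagged. Chance sets apart a small share of such sets, so 1 flag among 18 sets can arise by chance. Axin2+ replicate 4 was also the array in which all 9 surfactant genes, Ctsh among them, lay above their Axin2+ mean.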

How the results depend on the processing

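All 9 surfactant genes kept their direction in all 207 alternative fits of their differences. Many of these fits could not change it. The stricter threshold, the filters, the probe set choices, the variance trend and the replicate block leave each difference as it was. The count of lower surfactant genes, 1 as reported, was 5 with median centring (Sftpd, Abca3, Lamp3, Napsa and Slc34a2), 3 with an intensity trend and robust variances, 2 with quantile normalization, with either filter on dim genes and without SP-C+ replicates 4 and 5, and 0 without SP-C+ replicates 1, 2 and 3, with the Y-linked covariate, at an adjusted p under 0.01 and with a difference of at least 0.5. It was 1 to 2 without 1 array. The higher count was 0 throughout. Median centring moved the median of all genes from -0.04 to -0.14, and the calls over all genes from 1909 higher and 1985 lower to 1561 higher and 4412 lower. The lower calls numbered 919 at an adjusted p under 0.01 and 689 with a difference of at least 0.5, and 1377 to 2073 without 1 array (higher 1597 to 1950). The cause of these changes was not tested, except that the stricter thresholds lower counts by construction. Leaving out arrays also weakens the test, most of all where only SP-C+ replicates 4 and 5 remain in that group. Calls over all genes were then 1504 higher and 1335 lower. Omission did not always lower the counts, as without SP-C+ replicates 4 and 5 they were 2123 higher and 2177 lower. With the replicate number as a block, 0 surfactant genes were called, Sftpd being at -0.32 (adjusted p = 0.0687), and calls over all genes were 1608 higher and 1371 lower. Deviations of same-numbered arrays correlated at -0.23 to 0.01, and 0 of 5 SP-C+ arrays correlated best with their own number. The number of arrays limits precision, with standard errors of 0.06 to 0.12 for the 9 genes.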
